A study of Mus musculus with 30 samples.

Results

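Transcripts of 6 transcription factors of the trophoblast (Cdx2, Gata3, Tfap2a, Tfap2c, Elf5 and Hand1) and of 4 keratins of simple epithelia (Krt7, Krt8, Krt18 and Krt19) were followed in mouse embryonic stem cells depleted of cohesin cofactors. The 10 genes were taken from the count table by symbol, with GENCODE vM23 gene identifiers, and are 10 of its 55421 genes. After 24 h of degron treatment, Krt7 and Krt8 were called higher in all 4 degron lines, and the 4 keratins were called higher together in the PDS5AB and WAPL lines. Krt7 was also called higher in the TIR1 line, which has no degron, and its call in the WAPL-NIPBL line was lost under several alternatives. Over the same treatments Tfap2c was called lower in all 4 degron lines, and none of the other factors was called in the same direction in more than 1 of them. This changed with libraries of a line paired by replicate number. Cdx2 was then called higher in PDS5AB-NIPBL and WAPL-NIPBL, and Tfap2a lower in WAPL and WAPL-NIPBL. Krt19 was then called higher in PDS5AB-NIPBL as well. Cdx2 showed its widest treatment difference in the line without a degron. There auxin cannot be told apart from a split in library numbers, which limits the Krt7 call in that line too.

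The trophoblast is the outer layer of the blastocyst and forms the placenta, while embryonic stem cells stand for the inner cell mass. CDX2, GATA3, TFAP2C, TFAP2A and ELF5 are transcription factors that establish and maintain the trophoblast stem cell state, and HAND1 acts in the differentiation of trophoblast giant cells. Keratins polymerise as pairs of a type II chain (here KRT7 and KRT8) with a type I chain (here KRT18 and KRT19), and the KRT8 and KRT18 pair is the first keratin network of the embryo, laid down in the trophectoderm.

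The cells were E14 embryonic stem cells, a male line of 129P2/Ola background, grown in serum with leukemia inhibitory factor and the inhibitors PD0325901 and CHIR-99021. The study asked how the dosage of cohesin cofactors, proteins that load, arrest or release the loop-extruding cohesin ring, bears on the genome, and its RNA was sequenced as polyA libraries from 5 lines. Each line was sampled untreated and treated, with 3 libraries in each of the 10 groups. All lines carry Tir1, the plant F-box protein that marks proteins fused to an auxin-inducible degron (AID) for destruction when auxin is added. The TIR1 line carries Tir1 alone and was given auxin without a degron. PDS5A and PDS5B are both AID-tagged in the PDS5AB line, and WAPL is AID-tagged in the WAPL line. Their double counterparts, PDS5AB-NIPBL and WAPL-NIPBL, keep these tags and add FKBP to the cofactor NIPBL, a target for dTAG-13, and Halo to RAD21, a subunit of cohesin. Treated cells received 500 µM auxin for 24 h. The double lines also received 500 nM dTAG-13 over those 24 h, so the agents are not separated there. Each line is named as a single cell line in the labels, so a difference between lines may also be one between clones. The labels do not say whether replicates came from separate cultures, and if they did not the p-values measure only technical spread.

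Library totals ran from 19632704 to 45539021 fragments. Pearson's r of log2 levels between replicates was at least 0.987. The libraries fall in 2 series of numbers in the labels. The untreated TIR1 group and both PDS5AB groups have numbers up to 21, and the other 21 libraries have higher ones. Treatment effects of the 4 degron lines lie within 1 set of numbers, but the TIR1 treatment effect crosses the sets, so for TIR1 auxin and library set cannot be told apart. Genes of the pluripotent state were abundant in all groups: 10 such genes (Pou5f1, Sox2, Nanog, Klf4, Klf2, Esrrb, Zfp42, Tfcp2l1, Tbx3 and Prdm14) summed to between 5870 and 6610 CPM (counts scaled to library size) in the untreated libraries. In bulk RNA of this kind, more cells of a type and more RNA per cell cannot be told apart.

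Of the 10 genes, 9 passed the filter on low counts and were tested. Elf5 did not pass it. Cdx2, Tfap2a, Tfap2c and the 4 keratins had a median of at least 10 counts in all 10 groups, while Gata3 had it in 8 and Hand1 in 4. The tested Hand1 therefore owes its place to its more abundant groups, and calls for it elsewhere are limited by depth. None of the 10 had another gene whose transcript matched its longest coding transcript at 90% identity or more over 200 or more bases. The table was counted without regard to strand. Short exon overlaps with genes on the opposite strand exist for Gata3, Tfap2a, Krt7 and Krt8, and the overlapping gene with most counts, Gm47061 at Tfap2a, averaged 8.23 counts per library against 176 for Tfap2a.

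Of the keratin genes 3 lie on chromosome 15 (GRCm38). Krt8 (ENSMUSG00000049382.10, 101996698 to 102004482) is on the minus strand and Krt18 (ENSMUSG00000023043.7, 102028180 to 102032027) on the plus strand, with starts 23.7 kb apart, pointing away from each other, and with no other annotated gene starting between them. Krt7 (ENSMUSG00000023039.17, 101411043 to 101430313, plus strand) starts 593.4 kb from Krt8, and Krt19 (ENSMUSG00000020911.14, 100140810 to 100148665, minus strand) is on chromosome 11. Cdx2 (ENSMUSG00000029646.3, 147300805 to 147307270) is on chromosome 5 and Tfap2a (ENSMUSG00000021359.16, 40715302 to 40738376) on chromosome 13, both on the minus strand. Gata3 (ENSMUSG00000015619.10, 9857078 to 9890034, minus strand), Tfap2c (ENSMUSG00000028640.11, 172549593 to 172558622, plus strand) and Elf5 (ENSMUSG00000027186.14, 103411688 to 103450989, plus strand) are on chromosome 2. Hand1 (ENSMUSG00000037335.13, 57828705 to 57832818, minus strand) is on chromosome 11.

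The sequence before the start of Krt8 and Krt18 is shown because these neighbours were both called higher in 3 of the 4 degron lines. Promoter sequences (RefSeq, GRCm38.p6) were matched for 7 of the 10 genes. The stretches below run 5′ to 3′ on the gene's own strand, begin 250 bases before the RefSeq start and stop where the first annotated exon of GENCODE vM21 begins. Capitals mark a match to GCCNNNGGC, the palindromic motif of AP-2 factors, the family of TFAP2A and TFAP2C.
Krt8, chr15:102004483-102004592, minus strand: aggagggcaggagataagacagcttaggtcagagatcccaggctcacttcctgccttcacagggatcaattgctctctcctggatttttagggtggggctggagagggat
Krt18, chr15:102027966-102028179, plus strand: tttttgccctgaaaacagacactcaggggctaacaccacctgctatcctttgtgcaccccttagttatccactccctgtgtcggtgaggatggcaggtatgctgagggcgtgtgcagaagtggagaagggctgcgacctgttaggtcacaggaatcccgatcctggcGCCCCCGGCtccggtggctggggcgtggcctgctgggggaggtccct

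Within the 250 bases before the RefSeq start, GCCNNNGGC (the same letters on both strands) was present in Cdx2, Gata3, Krt7 and Krt18 and in none of the windows of Krt8, Tfap2a and Elf5. Of all 32851 promoters in the table, 13.7% hold it in a window of this length. The windows with a match had a GC content of 55.2% (Cdx2), 60.4% (Krt18), 66.0% (Krt7) and 70.0% (Gata3), against a median of 52.4% over all promoters. The matches with 10 flanking bases are shown because the genes of 2 AP-2 factors are among the 10 studied. Positions count from the RefSeq start, with -1 just before it. For Gata3, whose 3 matches overlap in their flanks, the one nearest to the start is given.
Cdx2, chr5:147307247-147307275, minus strand, match at -16 to -8: atcacgtaagGCCGCTGGCctgggactcc
Gata3, chr2:9878803-9878831, minus strand, match at -221 to -213: gccctaggcgGCCCTTGGCggcgcccctt
Krt7, chr15:101412247-101412275, plus strand, match at -146 to -138: tggacgaagaGCCTTGGGCggcggctggg
Krt7, chr15:101412323-101412351, plus strand, match at -70 to -62: gagaaaggtgGCCAGCGGCcagccccgcc
Krt18, chr15:102028123-102028151, plus strand, match at -83 to -75: cgatcctggcGCCCCCGGCtccggtggct

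The matches in Cdx2 and Krt7 fall in exons annotated in GENCODE vM21, and those in Gata3 and Krt18 outside exons. The GC box GGGCGG or its complement, a motif of SP and KLF factors, was found in Krt7 (4 matches, of which 1 overlaps an AP-2 match), Gata3 (2 matches) and in both annotated Tfap2a promoters (1 match each), against 32.7% of all promoters. Neither TGANTCA (AP-1, present in 6.75% of promoters) nor CNATAAA (CDX factors, 9.81%) was found on either strand of any matched window of the 7 genes. A match is a string of letters and not evidence of binding.

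Levels of different genes are compared per exon length, as FPKM (fragments per kilobase of exon, scaled to library size), in untreated TIR1 cells. The length is summed over the annotated exons of a gene and is not that of a single transcript. It is longest for Krt7 (7049 bases), whose place in the order depends on it. Tfap2c stood highest at 20.6 ± 0.961 FPKM (SD, n = 3), followed by Krt19 at 8.53 ± 2.49 and Krt8 at 7.96 ± 0.774, whose libraries overlapped. Krt18, the partner of Krt8, stood at 1.82 ± 0.396 FPKM, Tfap2a at 1.15 ± 0.178 and Cdx2 at 0.642 ± 0.107. Gata3, Hand1 and Krt7 were between 0.108 and 0.158 FPKM on average and Elf5 at 0.0247 FPKM. Tfap2c stood at the 85.9th percentile of the tested genes by FPKM in these cells and Cdx2 at the 31.6th.

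**Figure D1:**
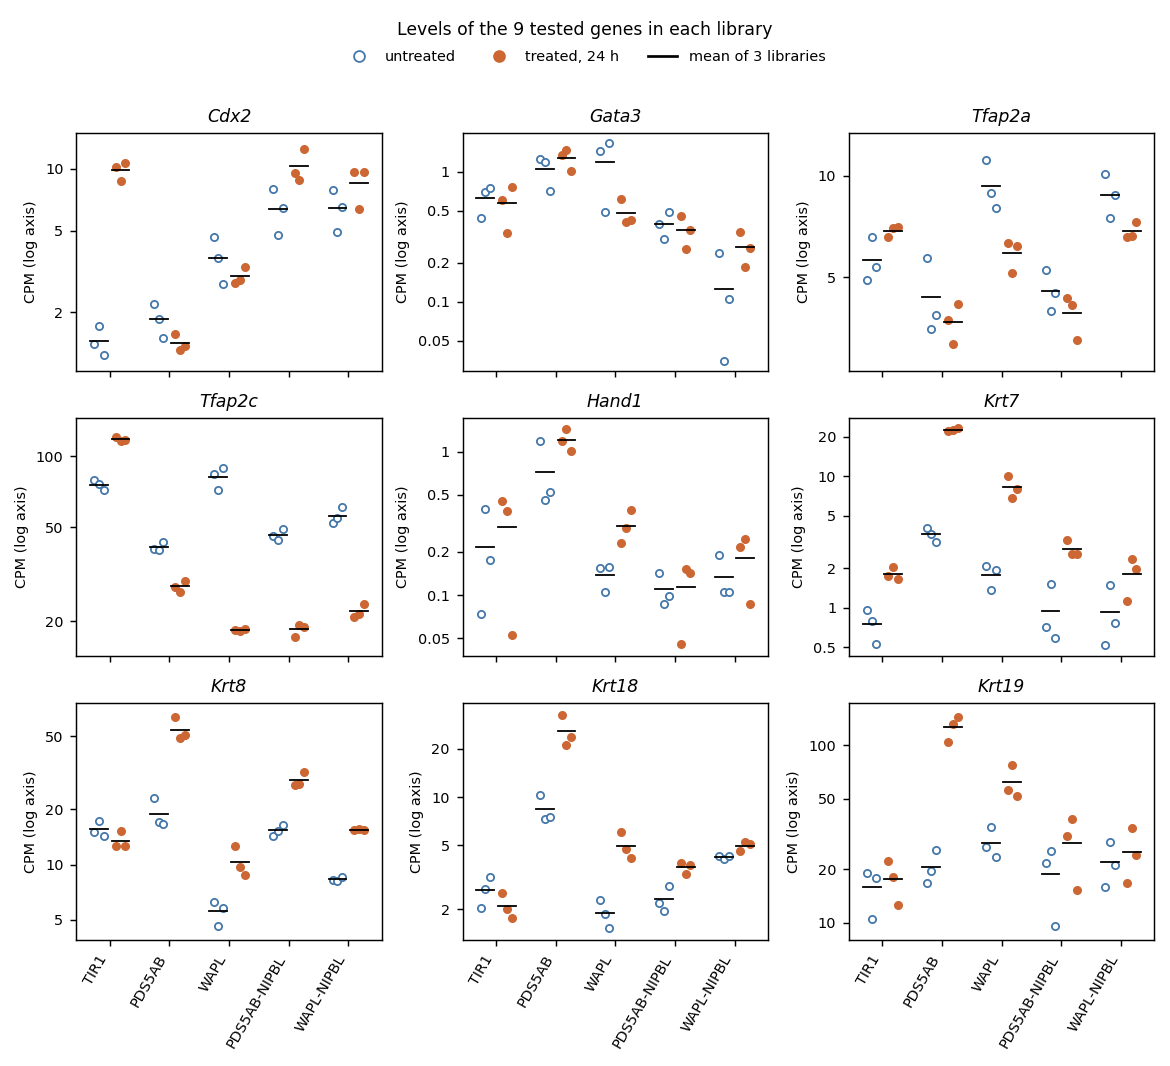
CPM (log axis) of the 9 tested genes in each of the 30 libraries, by line, untreated (open) and treated for 24 h (filled), with the mean of 3 libraries as a bar. Treated PDS5AB libraries have the highest Krt7, Krt8, Krt18 and Krt19, and Tfap2c drops in the 4 degron lines and is higher in treated TIR1.

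The treatment effect in each line was tested by edgeR's quasi-likelihood F-test, with a gene called at an adjusted p under 0.05 over 19868 genes. In the PDS5AB line 5 of the 9 tested genes were called, 4 higher and 1 lower, where 46% of all genes were called (25.8% higher, 20.2% lower). In the WAPL line 7 of 9 were called, 4 higher and 3 lower, against 32.8% of all genes (17% and 15.8%). In the PDS5AB-NIPBL line 5 were called, 4 higher and 1 lower, against 19.5% (11.4% and 8.06%), and 3 without untreated replicate 2 or without treated replicate 3. In the WAPL-NIPBL line 3 were called, 2 higher and 1 lower, against 8.57% (5.11% and 3.45%), and 5 with replicates as a block. Shares of all genes here and below are those of the unblocked fit on all 30 libraries, and those of other fits are not given. In the TIR1 line 3 were called, all higher, against 19.9% (10.4% higher, 9.59% lower). Medians of the 9 log2 changes were 0.76, 0.88, 0.57, 0.42 and 0.30 in that order, where the medians of all genes lay between -0.005 and 0.038.

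**Figure D2:**
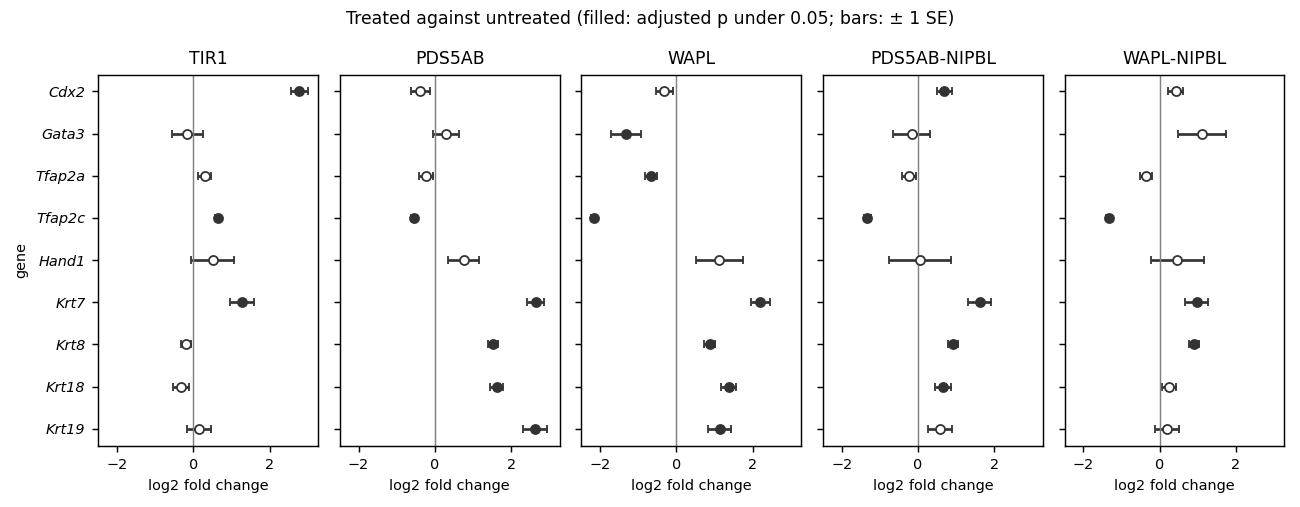
Log2 fold change, treated against untreated, of the 9 tested genes in each line, with bars of 1 SE and filled points where the adjusted p was under 0.05. The 4 keratins lie to the right in PDS5AB and WAPL, while Tfap2c lies to the left in every degron line and Cdx2 is farthest right in TIR1.

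Tfap2c encodes an AP-2 factor that acts in trophoblast, germ cells and naive pluripotent cells. In WAPL cells it stood at 84.0, 72.0 and 89.0 CPM untreated and at 18.3, 18.2 and 18.6 CPM treated. In PDS5AB cells it stood at 40.4, 40.1 and 43.2 CPM untreated and at 27.9, 26.6 and 29.8 CPM treated. PDS5AB-NIPBL cells went from 46.0, 43.9 and 49.1 CPM to 17.2, 19.3 and 18.9 CPM. The treated libraries of all 3 lines were below their untreated ones without overlap. Groups did not overlap, in either direction, for 52.8% of all tested genes in PDS5AB, 40.2% in WAPL and 33.4% in PDS5AB-NIPBL. The shares were 27% in WAPL-NIPBL and 39.2% in TIR1. Of the 9 tested genes studied here, 5, 7, 5, 4 and 3 did not overlap in that order. Separations given below are to be read beside these shares. In WAPL-NIPBL cells the untreated libraries held 52.1, 54.5 and 61.0 CPM and the treated ones 20.9, 21.6 and 23.8 CPM. In TIR1 cells the order was the opposite, with 79.0, 76.2 and 72.0 CPM untreated and 121, 116 and 117 CPM treated.

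Tfap2c fell 4.43-fold in WAPL cells (log2 -2.15, SE 0.0791, edgeR adjusted p = 3.27e-18), 2.53-fold in WAPL-NIPBL cells (log2 -1.34 with SE of 0.078, edgeR adjusted p = 3.94e-13) and 2.51-fold in PDS5AB-NIPBL cells (log2 -1.33, SE 0.0802, edgeR adjusted p = 5.25e-13). In PDS5AB cells it fell 1.47-fold (log2 -0.55, SE 0.0767, edgeR adjusted p = 7.31e-07). In TIR1 cells it rose 1.56-fold (log2 0.64, SE 0.0735, edgeR adjusted p = 3.15e-07), across library sets. Across all genes, 395 of 19868 (1.99%) were called lower in all 4 degron lines, and 37 of these (0.186% of all) were also called higher in TIR1, Tfap2c among them. The order of group means put treated WAPL (18.4 CPM) and treated PDS5AB-NIPBL (18.5 CPM) lowest with overlapping libraries, and each later neighbour was separate from the next except untreated TIR1 (75.7 CPM) and untreated WAPL (81.6 CPM).

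Cdx2 encodes the homeobox factor that specifies trophectoderm. Auxin-treated TIR1 libraries held 10.3, 8.72 and 10.7 CPM against 1.40, 1.72 and 1.24 CPM untreated, a 6.85-fold difference (log2 2.78, SE 0.228, edgeR adjusted p = 9.32e-10). This was the widest treatment difference of Cdx2 in any line. It crosses the library sets: the 9 libraries with numbers up to 21 held 1.24 to 2.19 CPM of Cdx2, and the remaining 21 held 2.75 to 12.5 CPM. Of all tested genes, 0.574% (114) were separated between the sets in this direction, so the TIR1 value of Cdx2 cannot be told apart from the library set.

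Within the sets, Cdx2 differed less. PDS5AB libraries held 2.19, 1.85 and 1.49 CPM untreated and 1.56, 1.30 and 1.37 CPM treated, which overlapped (log2 -0.38, 95% interval -0.91 to 0.16, edgeR adjusted p = 0.24). WAPL libraries also overlapped, at 4.66, 3.67 and 2.75 CPM untreated and 2.76, 2.87 and 3.32 CPM treated (log2 -0.31, 95% interval -0.77 to 0.14, edgeR adjusted p = 0.289). Neither line thus showed a call for the gene that defines trophectoderm. With NIPBL also targeted, in PDS5AB-NIPBL cells, Cdx2 stood at 7.96, 4.74 and 6.42 CPM untreated and at 9.56, 8.83 and 12.5 CPM treated, without overlap. It rose 1.61-fold there (log2 0.69, SE 0.195, edgeR adjusted p = 0.0111), a call lost without untreated replicate 2 (log2 0.52, edgeR adjusted p = 0.082) or treated replicate 3 (log2 0.53, edgeR adjusted p = 0.0909). In WAPL-NIPBL cells the libraries held 7.91, 4.90 and 6.53 CPM untreated and 9.64, 6.40 and 9.69 CPM treated, which overlapped. The log2 change of 0.42 was not called (SE 0.195, edgeR adjusted p = 0.212) but was called with replicates as a block (edgeR adjusted p = 0.0284).

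Tfap2a encodes the AP-2 factor of trophoblast, surface ectoderm and neural crest. In WAPL cells it stood at 11.1, 8.88 and 8.03 CPM untreated and at 6.32, 5.16 and 6.19 CPM treated, without overlap, and fell 1.59-fold (log2 -0.67, SE 0.16, edgeR adjusted p = 0.00144). In WAPL-NIPBL cells it stood at 10.1, 7.50 and 8.76 CPM untreated and at 6.57, 6.64 and 7.28 CPM treated, also without overlap. That log2 change of -0.36 was not called (SE 0.16, edgeR adjusted p = 0.19) but was called with replicates as a block (log2 -0.34, edgeR adjusted p = 0.0442). In the other 3 lines the groups overlapped and no change was called, with log2 values between -0.24 and 0.30.

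Gata3, which encodes a GATA factor that acts beside CDX2 in trophectoderm, was scarce, at 1 to 47 counts per library. In WAPL cells it stood at 1.45, 0.493 and 1.65 CPM untreated and at 0.613, 0.410 and 0.423 CPM treated, and untreated replicate 2 overlapped the treated libraries. It fell 2.50-fold (log2 -1.32, SE 0.384, edgeR adjusted p = 0.00796), a call lost without untreated replicate 1 (edgeR adjusted p = 0.0523) or untreated replicate 3 (edgeR adjusted p = 0.0674). No change of Gata3 was called in the other lines. Its group means ran from 0.126 CPM in untreated WAPL-NIPBL cells to 1.27 CPM in treated PDS5AB cells, and every neighbour in that order overlapped the next.

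Hand1, of giant cell differentiation, had 1 to 44 counts per library and no called treatment effect. It was most abundant in the PDS5AB line, at 1.18, 0.463 and 0.524 CPM untreated and 1.19, 1.44 and 1.01 CPM treated. These groups overlapped through untreated replicate 1, and the log2 difference of 0.76 (SE 0.405, edgeR adjusted p = 0.128) was called only without that library (log2 1.29, edgeR adjusted p = 0.0237). In the 8 groups outside the PDS5AB line its means were between 0.109 and 0.305 CPM. Elf5, which encodes an ETS factor that keeps trophoblast stem cells dividing, had 0 to 10 counts per library and 3 or fewer in every library of 6 groups. Its highest value, 10 counts, was in untreated TIR1 replicate 3, where the other libraries of that group had 1 each, and no test was made.

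Krt7 encodes a type II keratin of ducts, mesothelium and trophoblast. In PDS5AB cells it stood at 4.04, 3.63 and 3.17 CPM untreated and at 21.98, 22.6 and 23.1 CPM treated. WAPL cells had 2.07, 1.37 and 1.93 CPM untreated and 10.04, 6.86 and 7.95 CPM treated. PDS5AB-NIPBL libraries held 0.717, 1.52 and 0.589 CPM untreated and 3.28, 2.57 and 2.58 CPM treated. In these 3 lines all treated libraries were above all untreated ones. In WAPL-NIPBL cells, at 0.521, 1.48 and 0.768 CPM untreated and 1.12, 2.36 and 1.97 CPM treated, treated replicate 1 lay below untreated replicate 2. In TIR1 cells, at 0.955, 0.792 and 0.531 CPM untreated and 1.73, 2.06 and 1.66 CPM treated, the groups did not overlap but belong to different library sets.

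Krt7 rose 6.25-fold in PDS5AB cells (log2 2.64 with SE of 0.222, edgeR adjusted p = 8.85e-11), 4.59-fold in WAPL cells (log2 2.20, SE 0.244, edgeR adjusted p = 2.94e-08) and 3.07-fold in PDS5AB-NIPBL cells (log2 1.62, SE 0.301, edgeR adjusted p = 0.000196). In TIR1 cells it rose 2.41-fold (log2 1.27, SE 0.313, edgeR adjusted p = 0.00431). In WAPL-NIPBL cells it rose 1.95-fold at the edge of the threshold (log2 0.97, SE 0.306, edgeR adjusted p = 0.0442). That last call was lost without untreated replicate 1 or 3, without treated replicate 2 or 3 (edgeR adjusted p between 0.124 and 0.218) and in a fit on the 2 groups alone (edgeR adjusted p = 0.129). In the order of means, treated PDS5AB (22.6 CPM), treated WAPL (8.28 CPM) and untreated PDS5AB (3.62 CPM) were highest, and treated PDS5AB and treated WAPL were each separate from their neighbours.

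Krt8 encodes the type II keratin found first in the embryo. In PDS5AB cells it stood at 23.0, 17.1 and 16.7 CPM untreated and at 63.7, 49.0 and 50.6 CPM treated. WAPL cells had 6.30, 4.65 and 5.78 CPM untreated and 12.6, 9.68 and 8.73 CPM treated. PDS5AB-NIPBL cells went from 14.4, 15.3 and 16.4 CPM to 27.3, 27.5 and 31.97 CPM. All 3 lines had their treated libraries above their untreated ones. WAPL-NIPBL cells went from 8.24, 8.10 and 8.62 CPM to 15.4, 15.6 and 15.4 CPM, again without overlap. In TIR1 cells Krt8 stood at 15.1, 17.3 and 14.4 CPM untreated and at 12.7, 15.2 and 12.7 CPM treated, which overlapped.

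Krt8 rose 2.87-fold in PDS5AB cells (log2 1.52 with SE of 0.125, edgeR adjusted p = 6e-11). The 3 other degron lines had nearly equal changes: 1.84-fold in WAPL (log2 0.88, SE 0.144, edgeR adjusted p = 1.77e-05), 1.88-fold in PDS5AB-NIPBL (log2 0.91, SE 0.129, edgeR adjusted p = 4.47e-06) and 1.86-fold in WAPL-NIPBL (log2 0.89, SE 0.137, edgeR adjusted p = 4.22e-05). In TIR1 cells no change was called (log2 -0.20, 95% interval -0.47 to 0.07, edgeR adjusted p = 0.3). Of all genes, 572 (2.88%) were called higher in all 4 degron lines, and Krt7 and Krt8 were the 2 among the genes studied here.

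Krt18 encodes the type I partner of KRT8. In PDS5AB cells it stood at 10.4, 7.27 and 7.50 CPM untreated and at 32.5, 21.1 and 23.9 CPM treated, and rose 3.08-fold (log2 1.62, SE 0.165, edgeR adjusted p = 3.16e-09). In WAPL cells it stood at 2.28, 1.87 and 1.53 CPM untreated and at 6.01, 4.75 and 4.17 CPM treated, and rose 2.59-fold (log2 1.37, SE 0.202, edgeR adjusted p = 3.58e-06). Neither pair of groups overlapped. In PDS5AB-NIPBL cells it stood at 2.19, 1.96 and 2.78 CPM untreated and at 3.87, 3.33 and 3.76 CPM treated, without overlap, and rose 1.57-fold (log2 0.65, SE 0.209, edgeR adjusted p = 0.0257). The call did not hold without untreated replicate 1 or 2 and without treated replicate 1 or 3 (edgeR adjusted p between 0.0721 and 0.106). In WAPL-NIPBL cells it stood at 4.26, 4.09 and 4.29 CPM untreated and at 4.58, 5.26 and 5.11 CPM treated, without overlap but with no call (log2 0.25, 95% interval -0.14 to 0.64, edgeR adjusted p = 0.503). In TIR1 cells the groups overlapped, at 2.02, 2.68 and 3.15 CPM untreated and 2.52, 1.99 and 1.77 CPM treated (log2 -0.33, edgeR adjusted p = 0.282).

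Krt19 encodes the small type I keratin of simple epithelia. In PDS5AB cells it stood at 16.7, 19.5 and 25.5 CPM untreated and at 104, 132 and 145 CPM treated. It rose 6.14-fold (log2 2.62, SE 0.308, edgeR adjusted p = 4.48e-08). In WAPL cells it stood at 26.8, 34.4 and 23.5 CPM untreated and at 56.2, 77.4 and 51.9 CPM treated, and rose 2.19-fold (log2 1.13, SE 0.297, edgeR adjusted p = 0.00362). These 2 treated groups were the highest of the 10 and were separate from each other and from the rest.

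In the lines with NIPBL targeted as well, Krt19 varied with the replicate number. PDS5AB-NIPBL libraries held 21.7, 25.3 and 9.56 CPM untreated and 30.7, 38.4 and 15.2 CPM treated, in replicate order. The groups overlapped, while each treated library was above the untreated one of its number. The log2 change of 0.57 was not called (SE 0.314, edgeR adjusted p = 0.223) but was called with replicates as a block (log2 0.58, edgeR adjusted p = 0.000109). WAPL-NIPBL libraries held 15.9, 28.5 and 21.2 CPM untreated and 16.7, 34.1 and 24.1 CPM treated (log2 0.19, 95% interval -0.45 to 0.84, edgeR adjusted p = 0.792). TIR1 libraries held 19.02, 10.5 and 17.9 CPM untreated and 22.4, 18.0 and 12.6 CPM treated (log2 0.14, edgeR adjusted p = 0.798). Both of these pairs overlapped.

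Since keratins assemble as type I with type II chains, the summed FPKM of Krt18 and Krt19 was set against that of Krt7 and Krt8. Exon lengths used were 7049 bases for Krt7 against 1958, 1437 and 1855 for Krt8, Krt18 and Krt19. A count of Krt7 thus adds less to these sums than a count of the others. In treated PDS5AB cells Krt7 averaged 22.6 CPM but 3.20 FPKM, so the type II sums and the ratios depend on this length. In untreated TIR1 cells the type I sum was 10.4 ± 2.44 FPKM and the type II sum 8.07 ± 0.786 FPKM (SD, n = 3), a ratio of 1.31 ± 0.408. In PDS5AB cells the type II sum went from 10.2 ± 1.84 to 30.98 ± 4.06 FPKM and the type I sum from 16.9 ± 1.81 to 86.2 ± 8.06 FPKM. The ratio went from 1.70 ± 0.398 to 2.83 ± 0.553, without overlap between libraries. In WAPL cells the type II sum went from 3.10 ± 0.482 to 6.45 ± 1.22 FPKM and the type I sum from 16.6 ± 3.10 to 36.8 ± 7.36 FPKM, and the ratio was 5.52 ± 1.92 untreated and 5.85 ± 1.63 treated. In both double lines, PDS5AB-NIPBL and then WAPL-NIPBL, the mean ratio was lower after treatment, at 1.49 and 1.19 and at 3.36 and 2.07, and the libraries of untreated and treated WAPL-NIPBL cells (2.7 to 4.19 and 1.52 to 2.66) did not overlap. No test was made on these ratios.

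**Figure D3:**
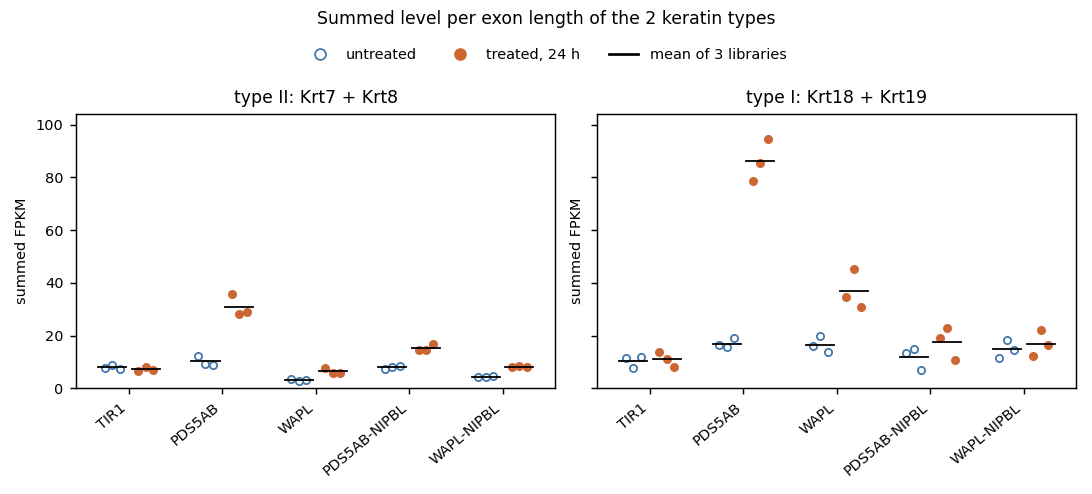
Summed FPKM of the type II keratins Krt7 and Krt8 (left) and the type I keratins Krt18 and Krt19 (right) in each library, by line, untreated (open) and treated (filled), with the mean of 3 libraries as a bar. Both sums are highest in treated PDS5AB cells, at means of 30.98 and 86.2 FPKM.

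Whether targeting NIPBL too changed the response was asked through differences between treatment effects, which compare lines that also differ in clone and in the RAD21 tag. The PDS5AB effect also lies in another library set than the PDS5AB-NIPBL effect, while WAPL and WAPL-NIPBL share a set. Between PDS5AB-NIPBL and PDS5AB, 5 of 9 genes differed, 1 higher and 4 lower, against 9.46% of all genes (4.97% and 4.48%). The keratin responses were smaller in PDS5AB-NIPBL, by log2 -2.05 for Krt19 (SE 0.433, edgeR adjusted p = 0.00249), -0.97 for Krt18 (SE 0.266, edgeR adjusted p = 0.0183) and -0.61 for Krt8 (SE 0.178, edgeR adjusted p = 0.0271). For Krt7 the difference of log2 -1.02 missed the threshold (edgeR adjusted p = 0.0894) and passed it with replicates as a block (log2 -1.005, edgeR adjusted p = 0.00782). Tfap2c fell further in PDS5AB-NIPBL than in PDS5AB, by log2 -0.77 (SE 0.111, edgeR adjusted p = 3.37e-05), and the Cdx2 effect was higher by log2 1.07 (SE 0.322, edgeR adjusted p = 0.0329). The differences for Cdx2 and Krt8 were lost on leaving out any of 6 and 7 libraries in turn, that for Krt8 also in a fit on the compared groups alone (log2 -0.61, edgeR adjusted p = 0.0519), and that for Krt18 without treated PDS5AB replicate 1, untreated PDS5AB replicate 2 or untreated PDS5AB-NIPBL replicate 3. The count fell to 3 without treated PDS5AB replicate 1 or untreated PDS5AB-NIPBL replicate 2, and to 2 without untreated PDS5AB replicate 2.

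Between WAPL-NIPBL and WAPL, 3 of 9 genes differed, 2 higher and 1 lower, against 5.19% of all genes (3.03% and 2.16%). The Krt18 response was smaller in WAPL-NIPBL by log2 -1.12 (SE 0.276, edgeR adjusted p = 0.0125), whereas that of its neighbour Krt8 was alike (log2 0.02, 95% interval -0.41 to 0.44). Mean treated Krt18 was 4.98 CPM in WAPL and in WAPL-NIPBL, and its untreated means were 1.90 and 4.21 CPM. The Krt18 difference thus lay in the starting levels. Tfap2c fell less in WAPL-NIPBL, by log2 0.81 (SE 0.109, edgeR adjusted p = 1.97e-05). Its means in WAPL and WAPL-NIPBL were 81.6 and 55.9 CPM untreated and 18.4 and 22.1 CPM treated. Gata3 differed by log2 2.44 (SE 0.734, edgeR adjusted p = 0.048), a call lost without any 1 of 9 of the 12 libraries and in a fit on those groups alone (edgeR adjusted p = 0.12). With replicates as a block, Krt7 (log2 -1.23, edgeR adjusted p = 0.0042), Krt19 (log2 -0.94, edgeR adjusted p = 1.9e-05) and Cdx2 (log2 0.71, edgeR adjusted p = 0.0224) were called as well, where the unblocked edgeR adjusted p were 0.0714, 0.245 and 0.165. Thus Tfap2c moved opposite ways between the pairs, with a larger drop beside NIPBL targeting in the PDS5AB background and a smaller one in the WAPL background. Only the PDS5AB pair sets effects from different library sets against each other.

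Between the PDS5AB and WAPL effects, which lie in different library sets, 4 of 9 genes differed. All were higher in PDS5AB, against 12.5% of all genes (7.38% higher, 5.11% lower). Tfap2c differed by log2 1.59 (SE 0.109, edgeR adjusted p = 8.56e-11), Krt19 by log2 1.49 (SE 0.419, edgeR adjusted p = 0.0163) and Gata3 by log2 1.61 (SE 0.516, edgeR adjusted p = 0.0364). Krt8 differed by 0.645 on the log2 scale (SE 0.191, edgeR adjusted p = 0.0222). Krt7 (log2 0.44, 95% interval -0.24 to 1.13) and Krt18 (log2 0.25, 95% interval -0.30 to 0.80) were not called. Tfap2c kept its call when each library was left out in turn, Krt19 lost it without untreated WAPL replicate 2 or treated WAPL replicate 3 (edgeR adjusted p = 0.0578 and 0.0512), and Gata3 and Krt8 lost it without any of 7 libraries and in a fit on those groups alone (edgeR adjusted p = 0.0731 and 0.1). The count was 2 without treated PDS5AB replicate 1, untreated PDS5AB replicate 3, untreated WAPL replicate 1 or 3, or treated WAPL replicate 2, and 1 without treated WAPL replicate 3.

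Against the TIR1 effect, which all 4 of these differences share and which crosses the library sets, 6 genes differed for PDS5AB, 5 for WAPL, 4 for PDS5AB-NIPBL and 3 for WAPL-NIPBL. For PDS5AB 4 were higher and 2 lower, against 26.3% of all genes (13.9% and 12.4%). For WAPL 2 were higher and 3 lower, against 20.7% (9.86% and 10.9%). For PDS5AB-NIPBL 2 were higher and 2 lower, against 10.1% (5.28% and 4.81%). For WAPL-NIPBL 1 was higher and 2 lower, against 7.04% (3.1% and 3.94%). Krt8 was higher in all 4, by log2 1.72, 1.08, 1.11 and 1.09 (largest edgeR adjusted p = 0.000386). Krt18 was higher for PDS5AB (log2 1.95, edgeR adjusted p = 2.77e-06), WAPL (log2 1.70, edgeR adjusted p = 7.25e-05) and PDS5AB-NIPBL (log2 0.98, edgeR adjusted p = 0.0305, lost on leaving out any of 8 libraries). Krt19 was higher for PDS5AB (log2 2.47, edgeR adjusted p = 8.97e-05). Krt7, itself higher in auxin-treated TIR1 cells, differed only for PDS5AB (log2 1.38, edgeR adjusted p = 0.0104), and not without untreated TIR1 replicate 1 (edgeR adjusted p = 0.0852). For WAPL, Krt7 (log2 0.95, edgeR adjusted p = 0.0166) and Krt19 (log2 0.98, edgeR adjusted p = 3.78e-06) were called with replicates as a block and not in the unblocked fit on all 30 libraries (edgeR adjusted p = 0.11 and 0.107). Both were also called without the filter on low counts (edgeR adjusted p = 0.0438 and 1.54e-10), and Krt19 in a fit on the compared groups alone (edgeR adjusted p = 0.0272).

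Before treatment the lines differed in some of these genes, as in many others, and most such comparisons with TIR1 cross the library sets. The 1 that does not, PDS5AB against TIR1, had 4 of 9 genes called, 3 higher and 1 lower, against 32% of all genes (15.5% and 16.5%). Untreated PDS5AB cells had more Krt7 (log2 2.25, SE 0.296, edgeR adjusted p = 4.4e-07), Krt18 (log2 1.67, SE 0.19, edgeR adjusted p = 3.05e-08) and Hand1 (log2 1.77, SE 0.52, edgeR adjusted p = 0.00874), and less Tfap2c (log2 -0.88, SE 0.0751, edgeR adjusted p = 1.23e-10). The Hand1 call was lost without untreated PDS5AB replicate 1 or untreated TIR1 replicate 1 (edgeR adjusted p = 0.0959 and 0.0723).

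Untreated WAPL cells had less Krt8 than TIR1 cells (log2 -1.48, SE 0.143, edgeR adjusted p = 9.34e-09) and more Cdx2 (log2 1.37), Krt7 (log2 1.24) and Tfap2a (log2 0.74), 4 of 9 genes against 14% of all (6.62% higher, 7.39% lower). Untreated PDS5AB-NIPBL cells had more Cdx2 (log2 2.15) and less Tfap2c (log2 -0.71), 2 of 9 against 34.3% (16.5% higher, 17.8% lower). Untreated WAPL-NIPBL cells had 6 of 9 called against 28% (13.4% higher, 14.6% lower): Cdx2 (log2 2.15), Krt18 (log2 0.68) and Tfap2a (log2 0.64) were higher, and Gata3 (log2 -2.39), Krt8 (log2 -0.90) and Tfap2c (log2 -0.44) lower. The Krt7 call in WAPL was lost without untreated TIR1 replicate 3 and the Krt18 call in WAPL-NIPBL without untreated TIR1 replicate 1. In these 3 comparisons line and library set cannot be told apart. Within a set, untreated WAPL-NIPBL against WAPL cells had 5 called against 10.7% (4.99% higher, 5.67% lower). Krt18 (log2 1.14, edgeR adjusted p = 0.000281), Cdx2 (log2 0.78, edgeR adjusted p = 0.0113) and Krt8 (log2 0.57, edgeR adjusted p = 0.00929) were higher, and Gata3 (log2 -3.32, edgeR adjusted p = 2.5e-05) and Tfap2c (log2 -0.55, edgeR adjusted p = 4.94e-06) lower. The Cdx2 call was lost without untreated WAPL-NIPBL replicate 1 or untreated WAPL replicate 3, and the Krt8 call without untreated WAPL replicate 2. Krt7 was called lower there with replicates as a block (log2 -0.92, edgeR adjusted p = 0.0439, against 0.0545 without).

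Across the 10 group means of log2 CPM, Pearson's r was 0.92 between Krt7 and Krt19, 0.80 between Krt7 and Krt18, 0.76 between Krt18 and Krt19, 0.71 between the neighbours Krt8 and Krt18, 0.57 between Krt7 and Krt8 and 0.45 between Krt8 and Krt19. Hand1 had r of 0.86 with Krt18, 0.81 with Krt7, 0.66 with Krt19 and 0.59 with Krt8, and Gata3 had r between 0.29 and 0.53 with the keratins. Tfap2c had r between -0.54 and -0.45 with the 4 keratins, and Tfap2a had r between -0.88 (Krt8) and -0.33 (Krt19) with them. Cdx2 had r of -0.03 with Tfap2c and between -0.51 and -0.23 with the keratins. These describe 10 means from 5 lines in 2 library sets. Among the 12940 genes averaging 50 counts or more, those most like Krt19 were Cldn4 (r = 0.971), which encodes a tight junction claudin, Dnal1 (0.963) and Elmsan1 (0.961). Those most like Krt7 were Med12l (0.985), Prkar1b (0.979) and Fndc1 (0.976), and those most like Krt18 were Capn3 (0.973), Abcc2 (0.969) and Chrnb1 (0.963). For Krt8 they were Zfp672 (0.945), 1810013L24Rik (0.943) and Abca5 (0.940). For Tfap2a they were Rnf167 (0.976), Scaper (0.953) and Gm6483 (0.946), and for Cdx2 Gm16185 (0.976), Med1 (0.966) and Slc25a44 (0.949).

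The genes around Krt8 were examined because Krt8 and Krt18 share a locus at the edge of the type II keratin cluster. Of 23 genes that start within 250 kb of the Krt8 start, 11 besides Krt8 and Krt18 were tested. On the side of the cluster, Krt79 (at -64.2 kb) rose from 1.06 to 4.14 CPM in PDS5AB cells (log2 1.97, edgeR adjusted p = 4.22e-05) and from 0.130 to 0.777 CPM in WAPL cells (log2 2.56, edgeR adjusted p = 0.000677). Krt4 and Krt1, keratins of stratified epithelia, stood at 0.430 and 0.454 CPM in treated PDS5AB cells and at 0.0849 and 0.107 CPM in untreated ones, and reached the filter only through the treated group. On the other side, Eif4b (at 69.3 kb, 820 CPM in untreated PDS5AB cells) was called in none of the lines, with log2 values between -0.13 and 0.16. Spryd3 was called higher in PDS5AB and WAPL cells by log2 0.28 and 0.31, and Tns2 in WAPL cells by log2 0.62. Other neighbours fell. Itgb7 (at 227.5 kb), which encodes an integrin chain, was called lower in PDS5AB, PDS5AB-NIPBL, WAPL-NIPBL and TIR1 cells by log2 -0.41, -0.67, -1.12 and -0.74 (largest edgeR adjusted p = 0.00486). Zfp740 was called lower in PDS5AB and PDS5AB-NIPBL cells by log2 -0.35 and -0.20, Csad in PDS5AB-NIPBL cells by log2 -0.21, and Krt79 in TIR1 cells, from 0.182 to 0.0163 CPM. Krt1, Krt4 and Krt77 reached the filter in PDS5AB cells only through the treated libraries, and of the other 8 neighbours 2 were called higher and 2 lower there, where 25.8% and 20.2% of all genes were. Of all 11, 4 were called higher and 0 lower in WAPL (all genes 17% and 15.8%), 0 and 3 in PDS5AB-NIPBL (11.4% and 8.06%), 0 and 1 in WAPL-NIPBL (5.11% and 3.45%) and 0 and 2 in TIR1 (10.4% and 9.59%). The 4 in WAPL include Krt77, which stood at 0 CPM untreated and 0.118 CPM treated.

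**Figure D4:**
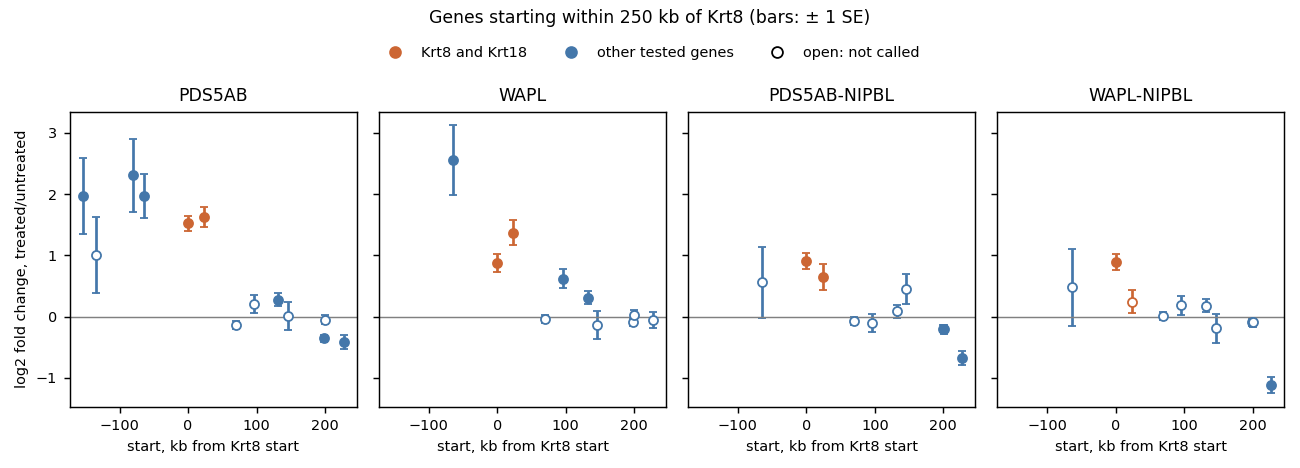
Log2 fold change on treatment of the tested genes that start within 250 kb of Krt8, against the distance of their start from that of Krt8, with bars of 1 SE and filled points where called. Krt8 and Krt18 (orange) are above 0 in all 4 panels, and Krt1, Krt4 and Krt77 are left out of the 3 right panels, where they had 3 or fewer counts in every library of a group. They are drawn in the PDS5AB panel, but reached the filter only through the treated PDS5AB libraries and are not counted for that line in the text.

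The table holds 50 other keratin genes, of which 22 passed the filter, 9 of them only through the treated PDS5AB libraries. Of the other 13, 7 were called higher and 1 lower in PDS5AB cells, where 25.8% and 20.2% of all genes were. Of all 22, 9 were called higher and 1 lower in WAPL, 1 and 2 in PDS5AB-NIPBL, 0 and 1 in WAPL-NIPBL and 0 and 4 in TIR1. In that order 17%, 11.4%, 5.11% and 10.4% of all genes were called higher and 15.8%, 8.06%, 3.45% and 9.59% lower. The 9 in WAPL include Krt77, at 0 CPM untreated and 0.118 CPM treated. Krt20, a keratin of gut and urothelium, rose from 0.511 to 5.36 CPM in PDS5AB cells (log2 3.37, edgeR adjusted p = 4.16e-10) and from 0.116 to 1.21 CPM in WAPL cells (log2 3.34, edgeR adjusted p = 4.57e-07). Krt5, of basal epidermis, rose from 0.339 to 3.88 CPM in PDS5AB cells (log2 3.52, edgeR adjusted p = 1.25e-09), and reached the filter without those treated libraries too, through treated WAPL cells at 0.661 CPM. Krt42, in contrast, fell in all 5 lines, from 11.4 to 3.10 CPM in WAPL cells (log2 -1.87, edgeR adjusted p = 1.9e-09) and by log2 values between -1.30 and -0.47 in the others. The summed level of the 50 was 24.9 to 26.8 CPM in untreated and 45.8 to 49.6 CPM in treated PDS5AB libraries, and in the other lines the treated sum was not above the untreated one on average.

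For the gene lists below, the counts are to be read against the shares of all genes called, which were 25.8% higher and 20.2% lower in PDS5AB, 17% and 15.8% in WAPL, 11.4% and 8.06% in PDS5AB-NIPBL, 5.11% and 3.45% in WAPL-NIPBL, and 10.4% and 9.59% in TIR1. Tested genes that reached the filter only through the libraries in which the compared line has them higher are left out of the list counts, which applied to Plac1, Krt14, Ovol1, Mesp1, Hand2, Sox10 and Pax3 in PDS5AB, to Mesp1 in WAPL and to Hand2 in PDS5AB-NIPBL. Of 20 junction and keratin linker genes of simple epithelia, 14 were called higher and 2 lower in PDS5AB cells, 8 and 2 in WAPL, 6 and 1 in PDS5AB-NIPBL, 2 and 2 in WAPL-NIPBL, and 6 and 1 in TIR1. Medians of log2 change were 0.71, 0.21, 0.11, 0.02 and 0.10. Dsc2, a desmosomal cadherin, rose in all 5 lines, by log2 1.87 in PDS5AB and 1.03 in WAPL (edgeR adjusted p = 1.36e-10 and 1.56e-05). Desmosomes anchor keratin filaments through desmoplakin, and its gene Dsp rose in PDS5AB cells from 18.3 to 51.4 CPM (log2 1.49, edgeR adjusted p = 1.5e-10) and in TIR1 cells from 26.3 to 59.4 CPM (log2 1.17, edgeR adjusted p = 1.08e-07). Ppl, which encodes the linker periplakin, rose by log2 1.72 in PDS5AB and 1.51 in WAPL (edgeR adjusted p = 2.63e-08 and 9.85e-07).

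Of 16 regulators of trophoblast other than the 6 factors, all tested, 6 were called higher and 5 lower in PDS5AB, 4 and 5 in WAPL, 2 and 7 in PDS5AB-NIPBL, 2 and 5 in WAPL-NIPBL, and 4 and 3 in TIR1, with medians of log2 change between -0.18 and 0.19. All genes were called at 25.8% higher and 20.2% lower in PDS5AB and at 17% and 15.8% in WAPL. Tead4, the TEAD factor upstream of Cdx2 in trophectoderm, fell in all 5 lines, from 40.8 to 18.3 CPM in WAPL cells (log2 -1.16, edgeR adjusted p = 7.41e-11) and from 31.6 to 17.8 CPM in PDS5AB cells (log2 -0.83, edgeR adjusted p = 2.93e-08). Gata2, of giant cells, fell in WAPL, WAPL-NIPBL and PDS5AB-NIPBL cells by log2 -1.66, -1.23 and -0.91 (largest edgeR adjusted p = 0.00907) and rose by log2 0.89 in TIR1 cells (edgeR adjusted p = 0.00542) and by log2 0.76 in PDS5AB cells (edgeR adjusted p = 0.0118). Fgfr2, the receptor for the FGF that trophoblast stem cells need, rose in PDS5AB, WAPL and PDS5AB-NIPBL cells by log2 1.12, 1.02 and 0.90 (largest edgeR adjusted p = 0.000381). Dlx3 rose from 3.41 to 13.1 CPM in PDS5AB cells (log2 1.95, edgeR adjusted p = 2.32e-08), and Id2 rose in all 4 degron lines by log2 values between 0.68 and 1.24.

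Of 14 products of differentiated trophoblast, 7 passed the filter. Tpbpa, Prl3d1, Prl3b1, Prl2c2, Ctsq and Synb, which mark spongiotrophoblast, giant cells and syncytium, had 3 or fewer counts in every library of all 10 groups. Plac1, a placental gene on the X chromosome, stood at 0.198 CPM in untreated and 0.941 CPM in treated PDS5AB cells and at 0.0821 CPM or less in every other group. The syncytin gene Syna rose from 0.304 to 0.854 CPM in PDS5AB cells (edgeR adjusted p = 0.00184). Phlda2 fell in the same line (log2 -0.87, edgeR adjusted p = 2.12e-06), and without Plac1 2 genes of the list were called higher and 1 lower. In PDS5AB-NIPBL cells 3 were called higher and 1 lower, in WAPL-NIPBL 2 and 0, and in TIR1 1 and 1. In WAPL cells 2 were called higher and 0 lower, with Cdkn1c, a cell cycle inhibitor expressed in trophoblast and elsewhere, rising from 2.54 to 8.48 CPM (log2 1.73, edgeR adjusted p = 2.3e-09). Paralogs of the 6 factors were counted as well: 12 of 15 were tested, with 6 higher and 1 lower in PDS5AB, 1 and 3 in WAPL, 4 and 2 in PDS5AB-NIPBL, 1 and 2 in WAPL-NIPBL, and 5 and 1 in TIR1, where 25.8%, 17%, 11.4%, 5.11% and 10.4% of all genes were called higher and 20.2%, 15.8%, 8.06%, 3.45% and 9.59% lower. Cdx1 rose beside Cdx2 in TIR1 cells, from 52.7 to 104 CPM (log2 0.98, edgeR adjusted p = 0.000179), across library sets.

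Markers of other cell types that use these keratins or factors moved in some of the same comparisons. Extraembryonic endoderm, which also has KRT8, KRT18 and KRT19, was represented by 14 tested genes of 16. Of these 8 were called higher and 1 lower in PDS5AB, 8 and 1 in WAPL, 6 and 0 in PDS5AB-NIPBL, 4 and 0 in WAPL-NIPBL, and 3 and 2 in TIR1. The shares of all genes called higher were 25.8%, 17%, 11.4%, 5.11% and 10.4% in that order. Dab2 rose from 11.5 to 38.8 CPM in PDS5AB and from 7.05 to 35.4 CPM in WAPL cells (log2 1.76 and 2.32, edgeR adjusted p = 7.01e-10 and 1.22e-11), and Gata6 from 1.55 to 4.12 CPM in PDS5AB cells (log2 1.42, edgeR adjusted p = 3.61e-05). The summed level of the 16 genes ran from 497 to 616 CPM untreated and from 706 to 868 CPM treated in PDS5AB libraries, and from 617 to 633 and 724 to 775 CPM in WAPL libraries. Ttr, a visceral endoderm product, had 3 or fewer counts in every library of both PDS5AB groups.

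Of surface ectoderm genes, 8 of 9 were tested, with 5 higher and 0 lower among the 6 counted in PDS5AB, 3 and 1 in WAPL, 1 and 0 in PDS5AB-NIPBL, 0 and 0 in WAPL-NIPBL, and 2 and 0 in TIR1, beside the same shares of all genes. The sum of the 9 went from 81.4 to 102 CPM untreated to 189 to 227 CPM treated in PDS5AB libraries. In WAPL libraries the sums overlapped, at 96.0 to 104 CPM and 94.2 to 107 CPM, and Krt14 and Dsg3 had 3 or fewer counts in every treated library. Of 11 streak and mesoderm genes 3 were called higher and 3 lower among the 9 counted in PDS5AB, 1 and 1 in WAPL, 3 and 2 in PDS5AB-NIPBL, 1 and 2 in WAPL-NIPBL, and 2 and 0 in TIR1. In TIR1 cells the higher ones were T (Brachyury), from 1.01 to 4.14 CPM (log2 2.02, edgeR adjusted p = 1.91e-07), and Cdx1. The mesoderm sum was 64.5 to 78.9 CPM in untreated and 118 to 131 CPM in treated TIR1 libraries, and Cdx1 alone went from 52.7 to 104 CPM, which is most of that difference. Of 7 tested neural crest genes 3 were called higher and 1 lower among the 5 counted in PDS5AB, 2 and 2 in WAPL, 4 and 1 in PDS5AB-NIPBL, 1 and 1 in WAPL-NIPBL, and 0 and 1 in TIR1, also beside those shares, and the mean of their sum was lower after treatment in every line. Foxd3, which is also expressed in pluripotent cells, made up most of that sum in the untreated degron lines, at 29.8 to 37.4 CPM. The part of any such cell type in the keratin or factor changes was not tested.

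Genes of the pluripotent state were called lower in the same lines. All 10 were called lower in PDS5AB cells, 9 in WAPL, and 8 each in PDS5AB-NIPBL and WAPL-NIPBL, with none higher, while in TIR1 cells 2 were higher and 2 lower. Their summed level went from 5870 to 5960 CPM untreated to 3620 to 3730 CPM treated in PDS5AB libraries and from 5970 to 6110 to 4500 to 4550 CPM in WAPL libraries. Prdm14, a regulator of naive pluripotency, fell most in all 4 degron lines among these genes, by log2 -1.42, -1.27, -1.01 and -0.68.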

How the data were processed

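RNA was measured as polyA-selected mRNA-seq in 30 libraries, 3 in each of 10 groups. The authors trimmed reads with cutadapt and aligned them with STAR 2.7.7a to mm10 (GRCm38.p6), per the submitters' processing notes. The deposited counts are whole fragments per gene from featureCounts 2.0.1, per the file headers, with GENCODE vM23 genes, paired ends counted and no option for strand, multi-mapping or overlapping reads set, although the kit is stranded. The deposited table also gives each gene's exon length in bases, per the file headers. All columns of per-sample values belong to the 30 libraries, whose totals ran from 19632704 to 45539021. Of 55421 identifiers 55154 (99.5%) were matched to a symbol.

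From the counts, edgeR 4.0.16 (limma 3.58.1, R 4.3.3) gave TMM-scaled CPM (factors 0.95 to 1.13), FPKM and quasi-likelihood F-tests on all 30 libraries with 10 group terms (20 residual degrees of freedom). The filter was filterByExpr at a minimum count of 10, which left 19868 genes, and p-values were adjusted over them by the Benjamini-Hochberg method. The filter was applied again without the 3 libraries of the higher group of each treatment effect, to find genes that passed through that group only. The 17 contrasts are 5 treatment effects, 7 differences between effects and 5 comparisons of untreated lines. The SE is the absolute log2 change divided by the square root of F. The fit was tested on simulated data.

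The members and gene lists were chosen with earlier results of these data known. Named are the 10 members, and further names were drawn by rule, though not every gene that met a rule is named. The rules took from each list the 3 called genes with the largest change in each treatment effect, and the tested keratins. They also took the 3 genes most like each member with a mean of at least 50 counts, and the tested genes starting within 250 kb of Krt8. The genes most like Tfap2c are not reported here. Lists share some genes, such as Gata6, Cdx1 and Krt5. Pairing by replicate number was checked on deviations from group means. Same-numbered untreated and treated libraries had r between 0.109 and 0.333 in the 4 degron lines, where the numbers are taken to pair the libraries, and between -0.01 and 0.057 in TIR1, where they are not. Each result was recomputed with DESeq2 1.42.0, with RLE scaling in edgeR, unfiltered, on the compared groups alone, with a replicate block and without each library in turn.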

Additional observations from a re-analysis of the deposited data

Results flagged for a closer look

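Treatment effects that differed between lines are listed with the log2 difference, each called by edgeR's quasi-likelihood test, and values that share libraries are not independent of each other. Against the TIR1 effect, which crosses the library sets, the Cdx2 effect was lower by -3.15 (PDS5AB line), -3.09 (WAPL line), -2.09 (PDS5AB-NIPBL line) and -2.36 (WAPL-NIPBL line). In the same order the Tfap2c effect was lower by -1.19, -2.79, -1.97 and -1.98, and the Krt8 effect was higher by 1.72, 1.08, 1.11 and 1.09. The Krt18 effect was higher by 1.95 in PDS5AB, 1.70 in WAPL and 0.98 in PDS5AB-NIPBL. Krt7 and Krt19 differed for PDS5AB, by 1.38 and 2.47, and Tfap2a for WAPL, by -0.97.

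Between PDS5AB-NIPBL and PDS5AB the differences were 1.07 for Cdx2, -0.77 for Tfap2c, -0.61 for Krt8, -0.97 for Krt18 and -2.05 for Krt19. Between WAPL-NIPBL and WAPL they were 2.44 for Gata3, 0.81 for Tfap2c and -1.12 for Krt18. Between PDS5AB and WAPL they were 1.61 for Gata3, 1.59 for Tfap2c, 0.64 for Krt8 and 1.49 for Krt19. The PDS5AB effect lies in another library set than the PDS5AB-NIPBL and WAPL effects.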

How the results depend on the processing

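Of 74 called results for single genes among the 10, 56 kept their call under every alternative run, 18 lost it under at least 1, and none reversed, while 26 uncalled results were called under at least 1. With a replicate block the number of genes called went from 3 to 5 for the WAPL-NIPBL effect, from 3 to 5 for WAPL-NIPBL against TIR1 and from 3 to 6 for WAPL-NIPBL against WAPL, where it was 5 without a filter on low counts. It was 2 in place of 4 for PDS5AB against WAPL in a fit on those groups alone. For these the cause was not tested. With 1 library left out, the number ranged from 3 to 5 for the PDS5AB-NIPBL effect, from 2 to 5 for PDS5AB-NIPBL against PDS5AB and from 1 to 5 for PDS5AB against WAPL. Shares of all genes called in these alternative fits are not given here, so the changed numbers are not read as particular to these genes. The numbers do not pair the TIR1 libraries, where the block called Krt8 (log2 -0.20, edgeR adjusted p = 0.0294). Differences from TIR1 called with the block alone or with few other alternatives were Tfap2a for PDS5AB (log2 -0.51, edgeR adjusted p = 0.0327), PDS5AB-NIPBL (log2 -0.54, edgeR adjusted p = 0.044) and WAPL-NIPBL (log2 -0.64, edgeR adjusted p = 0.00824), Krt19 for PDS5AB-NIPBL (log2 0.44, edgeR adjusted p = 0.042) and Krt18 for WAPL-NIPBL (log2 0.58, edgeR adjusted p = 0.0431). Apart from these and the blocked values given beside their results, the block changed no call. Depth limits Gata3 and Hand1, at up to 47 and 44 counts per library, and leaves Elf5 untested.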
